A study of Mus musculus with 6 samples.

Results

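The hypoxia-inducible factors were followed through 10 genes on a whole-genome Affymetrix mouse array: the alpha subunits Hif1a and Epas1, the prolyl hydroxylases Egln1 and Egln3, and the targets Bnip3, Adm, Ndrg1, P4ha1, Pdk1 and Ankrd37. Members were all probe sets whose platform annotation names only 1 of these symbols, which gave 10 of the 18194 genes with a symbol and 25 of 45101 probe sets. RNA was taken from lungs of wild type mice, 3 fed a high fat diet and 3 fed a control diet, with 1 array per mouse. Strain, age, sex, length of the diet and any exposure to low oxygen were not given in the sources used here. Nothing in the labels says whether mice were housed or processed apart, within a group or between the groups. Numbers in the sample titles are all lower for control than for high fat mice, and their meaning is not stated. The p-values measure the spread between these arrays. They cannot separate diet from housing or processing that differed along with it, and such a difference was not tested.

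In oxygenated cells the prolyl hydroxylases modify the HIF alpha subunits, and the von Hippel-Lindau ubiquitin ligase then marks them for degradation. When oxygen is short, the alpha subunits persist, pair with Arnt and bind hypoxia response elements near their targets. Because this control acts on the protein, the transcript of an alpha subunit does not report the activity of the factor. In the lung, Epas1 (HIF-2 alpha) is known for its expression in endothelium and alveolar type II cells, while Hif1a is widely expressed.

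The core of a hypoxia response element reads ACGTG or GCGTG. It was looked for on both strands (so as CACGT or CACGC on the printed strand) in windows of 250 bases before to 50 bases after the gene starts of RefSeq (GRCm38.p6). The reverse complement of ACGTG overlaps it within CACGTG. At least 1 core was found in 43.8% of 32851 windows of all genes. Among the members, 9 windows of 8 genes were matched, and 8 of them held a core. Ndrg1 and Epas1 had no matched window. A 60-base stretch before the start that RefSeq's window is set on is shown for each of the 8 genes. Every core of the stretch is in capitals, because this core is the sequence that HIF reads. Each stretch was chosen to hold the most cores among the 250 bases, so its count is raised by the choice. Whole windows held 5 cores for Bnip3, 4 for Ankrd37, 3 each for Hif1a and P4ha1 and 2 each for Adm and Egln1. Egln3 had 1, and the 2 windows of Pdk1 had 2 and 0. Bnip3, whose stretch on the minus strand at chr7:138909582-138909641 held 4 cores, had the most.
Hif1a: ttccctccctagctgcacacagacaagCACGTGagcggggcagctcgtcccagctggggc
Egln1: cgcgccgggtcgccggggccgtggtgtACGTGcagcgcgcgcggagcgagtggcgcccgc
Egln3: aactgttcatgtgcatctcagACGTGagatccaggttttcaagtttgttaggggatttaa
Bnip3: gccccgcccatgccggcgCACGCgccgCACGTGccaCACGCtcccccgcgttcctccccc
Adm: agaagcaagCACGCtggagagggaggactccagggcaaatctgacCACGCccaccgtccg
P4ha1: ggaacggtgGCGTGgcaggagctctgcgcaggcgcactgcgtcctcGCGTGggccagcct
Pdk1: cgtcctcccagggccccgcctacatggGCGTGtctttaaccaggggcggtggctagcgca
Ankrd37: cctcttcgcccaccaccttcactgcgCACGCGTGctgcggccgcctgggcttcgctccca

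The other stretches lie at chr12:73907705-73907764 on the plus strand (Hif1a), chr8:124949290-124949349 on the minus strand (Egln1), chr12:54204065-54204124 on the minus strand (Egln3), chr7:110627558-110627617 on the plus strand (Adm), chr10:59323124-59323183 on the plus strand (P4ha1), chr2:71873119-71873178 on the plus strand (Pdk1) and chr8:45999972-46000031 on the minus strand (Ankrd37). Hif1a and Ankrd37 have stretches that lie inside the gene's locus in RefSeq, so the window used there belongs to a transcript start within the locus. The windows of P4ha1 and Pdk1 are also set on starts within the locus, though their printed stretches lie before it. A match of letters is not a site of binding, and the arrays measured no binding.

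Signals are MAS5 intensities that the authors scaled to a trimmed mean of 500 on each array, so a signal is relative to the rest of its array. Array medians were 113.3 to 128.7 with high fat diet and 143.3 to 150.3 with control diet. Surfactant protein C (Sftpc), a marker of alveolar type II cells, had signals of 45580 to 57320 in high fat and 33000 to 69410 in control lungs, and the club cell gene Scgb1a1 55960 to 66960 and 38300 to 75980, so both lung markers were bright in all 6 mice. For Gapdh, the 3' control probe set over the 5' one gave 0.854 to 0.957 on high fat and 0.743 to 0.795 on control arrays, without overlap. For beta-actin this ratio was 1.503 to 1.546 on high fat and 1.194 to 1.437 on control arrays, also without overlap. Of 12 marker lists of lung and neighbouring cells, the adipocyte and smooth muscle scores of all high fat mice lay above, and the macrophage, neutrophil and lymphocyte scores below, those of all control mice. Counts of called markers, here and below, are by the brightest probe set of each gene, with adjustment over 12689 genes. Of 6 macrophage markers 4 were called lower (sums of 6380 to 19500 in high fat and 15000 to 19100 in control lungs). Their log2 differences ran from -1.92 to 0.256. Chil3, the brightest of the 6, carries most of these sums and was not called. It had 4856, 7652 and 17290 in high fat and 14310, 11900 and 12290 in control lungs. Of 3 erythroid markers 2 were called lower, and of 9 cardiac markers 1 was called higher. For alveolar type I 0 of 6 and for club cells 0 of 4 markers were called. Dimmer probe sets of the type I markers Clic5 and Hopx were called lower over probe sets. By brightest probe sets the type I list had a median log2 difference of 0.166, from -0.528 to 0.269.

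Of the 25 probe sets, 22 had a mean log2 signal above the filter of 6.14 and were tested with limma across all 27022 probe sets that passed. A call is a Benjamini-Hochberg adjusted p under 0.05. Of the 22, 4 passed (18.2%, against 12.9% of all tested probe sets). In high fat lungs 3 of them were higher and 1 was lower, that is 13.6% and 4.55%, where 4.63% and 8.27% of all tested probe sets were called in these directions. All 3 calls toward higher signals belong to Ndrg1, so they count 1 gene, and the call toward lower signals belongs to Hif1a. The groups did not overlap for 6 probe sets in the higher and 2 in the lower direction (27.3% and 9.09%), against 14.6% and 21.7% of all tested. In both directions together this was 36.4% of the members, near the 36.2% of all tested. The median log2 difference, high fat minus control, was 0.00978 over the members and -0.0583 over all tested probe sets, and 11 of the 22 estimates were above 0. The residual SD within groups had a median of 0.24 on the log2 scale both in the members and in all tested probe sets.

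**Figure D1:**
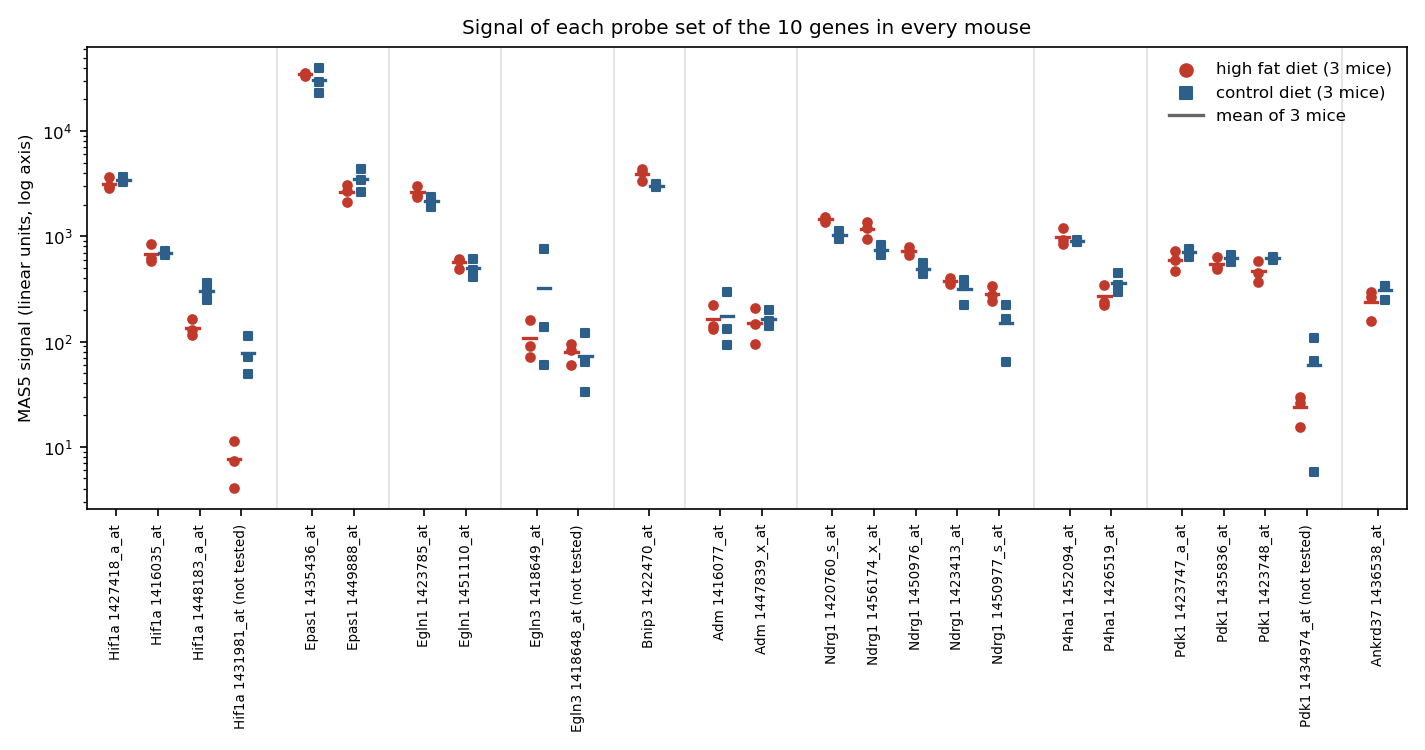
MAS5 signal (linear units on a log axis) of each of the 25 probe sets in every mouse, high fat mice as circles left of control mice as squares, with the mean of 3 mice as a line. The groups stand apart for 4 of the 5 Ndrg1 probe sets, for Bnip3, for 1 probe set each of Egln1 and Pdk1 and for the 2 dimmest of Hif1a, and Egln3 has 1 control mouse at 761.8.

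Hif1a, on chromosome 12 (73901324 to 73947554 in GRCm38.p6), encodes the alpha subunit of HIF-1 and had 4 probe sets that did not behave alike. The brightest, 1427418_a_at, had signals of 2899, 3627 and 2992 in high fat and 3383, 3634 and 3264 in control lungs. The ranges overlapped, and the log2 difference was -0.12 ± 0.12 (SE, limma adjusted p = 0.554, 95% interval -0.39 to 0.16). The next, 1416035_at, likewise overlapped, with means of 685.7 ± 143.1 and 694.9 ± 34.3 (SD, n = 3 each).

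The third Hif1a probe set, 1448183_a_at, had signals of 162.8, 127.6 and 116 in high fat lungs, against 302.7, 245.7 and 360 in control lungs. Every high fat value lay below every control value. It fell to 0.448 times the control level (log2 -1.16 ± 0.24 SE, limma adjusted p = 0.0197), and it stayed called with quantile normalization (-0.94) and with arrays centred on the median of all probe sets other than controls (-0.88). The dimmest, 1431981_at, was below the filter, with 7.36, 11.4 and 4.03 in high fat and 111.6, 49.5 and 71.6 in control lungs, without overlap. With no filter, over 45037 probe sets, it was called lower (limma adjusted p = 0.0321). No fold is given for it.

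Within each array, the signal of 1448183_a_at relative to that of 1427418_a_at was -4.15, -4.83 and -4.69 on the log2 scale in high fat and -3.48, -3.89 and -3.18 in control lungs. Every high fat value lay below every control value, with an exact two-sided permutation p = 0.1, the smallest that 3 against 3 allows, for a pair chosen after its values were seen. Which stretch of the transcript each probe set matches is not given in the files used here. No direction can be given for Hif1a as a gene: by its brightest probe set it was not called, and with arrays centred on their median the brightest moved to 0.16 and 1416035_at to 0.24, while 1448183_a_at stayed below 0. The call of 1448183_a_at was lost without control replicate 1 (limma adjusted p = 0.0561), control replicate 3 (0.0849) or high fat replicate 2 (0.0529).

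Markers of white blood cells, which also express Hif1a, were lower in the same mice. Of 8 lymphocyte markers 4 were called lower and 0 higher, and their summed signal was 2630 to 5140 in high fat and 6810 to 9660 in control lungs. Of 6 neutrophil markers 2 were called lower and 0 higher, with sums of 2020 to 3590 and 5030 to 15600. None of these markers was at 0 on any array. Their part in the Hif1a result was not tested, nor was that of the 3' to 5' ratios, which differed without overlap between the groups. In whole lung, fewer cells of a type and less RNA per cell cannot be told apart.

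Epas1 (chromosome 17, 86753864 to 86833410), the alpha subunit of HIF-2, had 2 tested probe sets with estimates of opposite sign, and neither was called. The brighter, 1435436_at, had signals of 33740, 35700 and 34960 in high fat and 22850, 39770 and 29250 in control lungs. The high fat values lay inside the control range (log2 0.22 ± 0.2 SE, limma adjusted p = 0.485). The dimmer, 1449888_at, had 3053, 2109 and 2680 in high fat and 3424, 2663 and 4317 in control lungs (log2 -0.4 ± 0.2 SE, limma adjusted p = 0.206). These groups overlapped too. Of 10 endothelial markers, 2 (Pecam1 and Emcn) were called lower by their brightest probe set. The sums were 45600 to 61900 in high fat and 55300 to 69500 in control lungs. By the same rule 0 of 8 alveolar type II markers were called (166000 to 188000 and 130000 to 189000). By brightest probe sets the endothelial list had a median log2 difference of -0.34, from -1.03 to 0.213, with Calcrl at 0.0633. Dimmer probe sets were called lower over probe sets for Cdh5 (log2 -1.75), Tmem100 (-1.23), Sox17 (-1.09) and Calcrl (-1.5) of endothelium. The same held for Etv5 (-0.924 and -0.976) and Napsa (-1.11) of type II cells. By brightest probe sets the type II list had a median log2 difference of 0.228, from -0.258 to 0.355, with Napsa at -0.0034. In 69% of all genes with several tested probe sets the dimmest had a lower estimate than the brightest.

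Whether the alpha subunits changed unequally was asked within arrays. The log2 signal of the brightest Epas1 probe set minus that of Hif1a was 3.54, 3.3 and 3.55 in high fat and 2.76, 3.45 and 3.16 in control lungs. The high fat mean was higher by 0.34 and the groups overlapped (exact two-sided permutation p = 0.2, smallest possible 0.1). With the dimmer Epas1 probe set, an alternative added after the data were seen, the difference turned to -0.28 (exact permutation p = 0.5).

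Egln1 (chromosome 8), which encodes PHD2, the main oxygen sensor among the prolyl hydroxylases, had estimates above 0 in both of its probe sets and no call. The brighter, 1423785_at, had signals of 2992, 2466 and 2376 in high fat and 1897, 2359 and 2308 in control lungs. The groups did not overlap, but the nearest values differed by less than the spread within either group (log2 0.25 ± 0.14 SE, limma adjusted p = 0.242). The other, 1451110_at, averaged 566.5 ± 64.6 and 497.7 ± 100.9 (SD, n = 3 each) and overlapped.

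Egln3 (chromosome 12), which encodes PHD3, an enzyme that is itself induced by HIF, was dominated by 1 mouse. Probe set 1418649_at had 161.2, 71.9 and 90.7 in high fat and 761.8, 59.8 and 138.7 in control lungs. Control replicate 1 stood far above the other 5 mice. The log2 difference was -0.86 ± 0.79 (SE, limma adjusted p = 0.496), and without that mouse it was 0.16 (limma adjusted p = 0.869). Control replicate 1 also had the highest skeletal muscle score of the 6 mice (3.51 on the log2 scale relative to the control mean, from 8 markers of which 0 were called, with sums of 1280 to 18200 in high fat and 578 to 59200 in control lungs), and the part of muscle in the Egln3 value was not tested. The other Egln3 probe set, 1418648_at, was below the filter, at 59.6 to 94.5 in high fat and 32.9 to 121.2 in control lungs.

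Among the targets, Ndrg1 was the only one of these 10 genes whose probe sets were called higher. Ndrg1 (chromosome 15, 66929318 to 66969641) encodes a cytoplasmic protein induced by hypoxia and other stresses, and all 5 of its probe sets had estimates above 0. Probe set 1420760_s_at had signals of 1447, 1529 and 1363 in high fat, against 1127, 934.1 and 1041 in control lungs. Every high fat mouse lay above every control mouse, and the signal rose 1.4-fold (95% interval 1.16 to 1.7, limma adjusted p = 0.0347).

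Probe set 1456174_x_at of Ndrg1 had 1210, 1363 and 941 in high fat and 738.3, 818 and 668.3 in control lungs, a rise of 1.57-fold (limma adjusted p = 0.0354). Probe set 1450976_at had 666.6, 796.9 and 726.7 in high fat and 553, 442.7 and 469.1 in control lungs, a rise of 1.5-fold (limma adjusted p = 0.0367). Neither pair of groups overlapped. The suffix _a_at (as in Hif1a) marks probe sets that match several transcripts of a gene. The suffixes _s_at and _x_at mark probe sets that Affymetrix designed with probes able to match further transcripts, whereas 1450976_at carries no such mark.

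The other 2 Ndrg1 probe sets were not called. Probe set 1450977_s_at had 335.4, 275.6 and 244.3 in high fat and 223.2, 163.9 and 64.3 in control lungs, without overlap (log2 1.09 ± 0.42 SE, limma adjusted p = 0.119). Probe set 1423413_at had 400.4, 367.4 and 354.9 in high fat and 385.6, 220.7 and 340.7 in control lungs, and the groups overlapped (log2 0.28 ± 0.23 SE, limma adjusted p = 0.427). The 5 probe sets share their mice and are not independent.

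The 3 calls of Ndrg1 held with quantile normalization (log2 0.46 to 0.64) and with median centring (0.76 to 0.92). All 3 were lost with eBayes without trend (limma adjusted p = 0.0596 to 0.0738), and with a block for the replicate number only 1456174_x_at stayed called (0.0271, against 0.0546 for 1420760_s_at and 0.0635 for 1450976_at). Each was lost in 5 of 6 fits that left out 1 mouse, where the estimates stayed between 0.42 and 0.8 and the adjusted p reached 0.115, 0.123 and 0.119. The fits that kept a call were those without high fat replicate 3 for 1420760_s_at and 1456174_x_at and without high fat replicate 1 for 1450976_at. None of the 3 was called without replicate 1 of both groups (limma adjusted p = 0.057 to 0.134). As 1 gene, by its brightest probe set, Ndrg1 had a limma adjusted p of 0.0491 over 12689 genes, and with the mean of its probe sets 0.0551.

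Transcripts of adipocytes and smooth muscle were higher in the same mice as Ndrg1. Of 5 adipocyte markers 5 were called higher, with sums of 22200 to 31300 in high fat and 2410 to 5620 in control lungs. Of 7 smooth muscle markers 3 were called higher and 0 lower, with sums of 29700 to 57900 and 19500 to 24200. None of these markers was at 0 on any array. Their part in the Ndrg1 result was not tested.

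**Figure D2:**
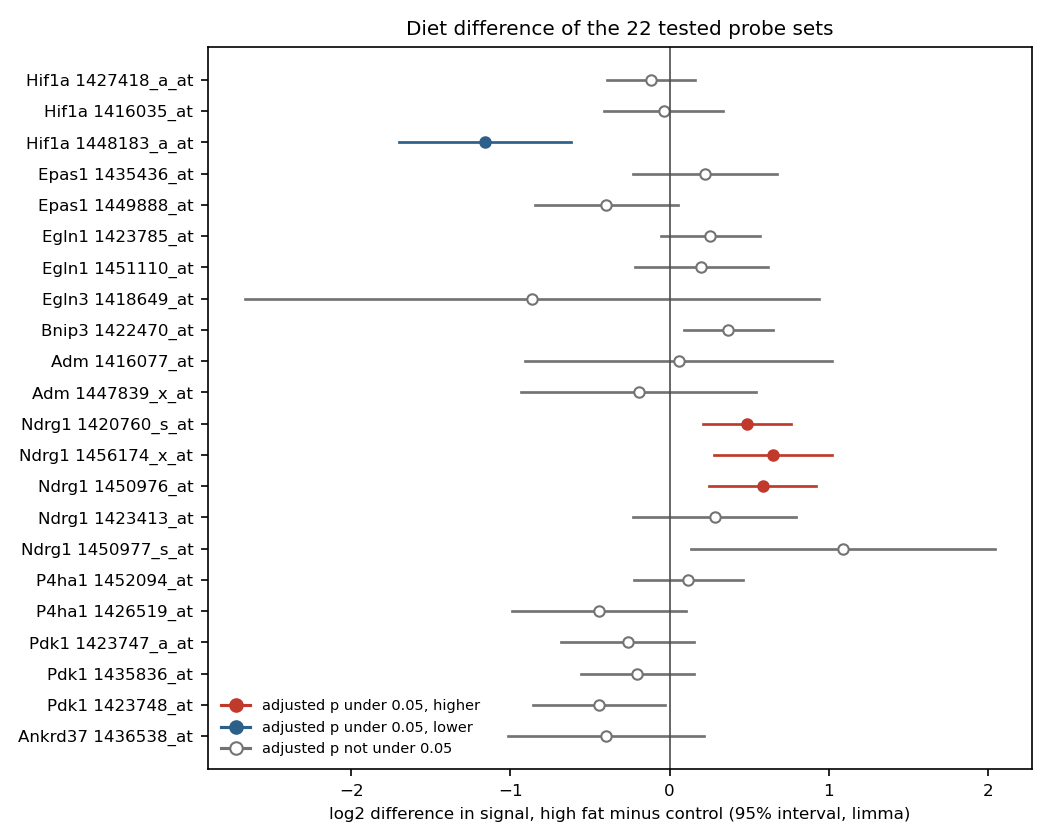
Log2 difference in signal, high fat minus control, of the 22 tested probe sets with 95% intervals from limma, filled where the adjusted p was under 0.05. Ndrg1 holds the 3 filled points above 0 and Hif1a 1448183_a_at the 1 below 0 (-1.16), while Egln3 has the widest interval (-2.66 to 0.94).

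Bnip3 (chromosome 7), a mitochondrial protein that promotes the removal of mitochondria, had 1 probe set, 1422470_at. Its signals were 4087, 4331 and 3375 in high fat and 3023, 2931 and 3144 in control lungs. The groups did not overlap, with a ratio of 1.29 (95% interval 1.06 to 1.56), but the difference did not pass the adjustment (limma adjusted p = 0.082). It passed with median centring (log2 0.64, limma adjusted p = 0.0237), as did Egln1 1423785_at (0.53, adjusted p = 0.0389), but neither did with quantile normalization or with centring on tested probe sets alone (limma adjusted p = 0.0589 for Bnip3 and 0.137 for Egln1). Bnip3 also passed without high fat replicate 3 (0.47, limma adjusted p = 0.0414).

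Pdk1 (chromosome 2), the kinase that holds pyruvate back from mitochondrial oxidation, had 3 tested probe sets with estimates below 0 and no call. Probe set 1423748_at had 583.8, 443.7 and 370.1 in high fat and 628.7, 637.7 and 598.9 in control lungs, without overlap (log2 -0.44 ± 0.18 SE, limma adjusted p = 0.139). In the brightest, 1423747_a_at, the signals were 730.5, 591.8 and 464.8 in high fat and 750.3, 630.8 and 735.2 in control lungs, and the groups overlapped. The estimates of this one and of 1435836_at turned to 0.0106 and 0.072 with median centring, so their sign depended on the scaling. Probe set 1434974_at was below the filter, at 15.2 to 29.4 in high fat and 5.75 to 107.9 in control lungs.

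P4ha1 (chromosome 10), the catalytic subunit of the prolyl 4-hydroxylase that matures collagen, had probe sets of opposite sign and no call. The brighter, 1452094_at, had 916, 841.5 and 1200 in high fat and 879.3, 891 and 922.9 in control lungs. The dimmer, 1426519_at, had 235.1, 221.1 and 347.6 in high fat and 448, 343 and 294.9 in control lungs. Both overlapped (limma adjusted p = 0.637 and 0.245), and high fat replicate 3 had the highest value of its group in each.

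Adm (chromosome 7), which encodes the vasodilator peptide adrenomedullin, varied between mice of both groups. Probe set 1416077_at had 139.6, 220.9 and 132.4 in high fat and 296.6, 131.5 and 92.9 in control lungs. The control values span the whole high fat range, and the 95% interval of the log2 difference, -0.91 to 1.02, includes changes of about 2-fold either way (limma adjusted p = 0.943). Probe set 1447839_x_at averaged 149.9 ± 56.5 and 165.3 ± 31.9 (SD, n = 3 each) and overlapped as well.

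Ankrd37 (chromosome 8), an ankyrin repeat protein known as a HIF-1 target, had signals of 156.4, 265.4 and 296.9 in high fat and 250.1, 338.7 and 334.1 in control lungs. High fat replicate 1 was the lowest of the 6, the groups overlapped, and the log2 difference was -0.4 ± 0.27 (SE, limma adjusted p = 0.349).

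Estimates across all probe sets depended on the signal. The median log2 difference was -0.26 in the 9834 tested probe sets with a mean log2 signal under 8, -0.0307 in the 10284 from 8 to 10, 0.0445 in the 5396 from 10 to 12 and 0.11 in the 1508 at 12 and over. In the lowest range, which holds Hif1a 1448183_a_at, 7.52% were called lower and 1.18% higher. In the range from 8 to 10, which holds 2 of the 3 called Ndrg1 probe sets, 4.46% were called higher and 10.5% lower. Among the 5951 genes with several tested probe sets, the dimmest had a lower estimate than the brightest in 69%, and among the 7 members with several it did so in 6. Ndrg1 was the exception, with a dimmest probe set 0.6 above its brightest on the log2 scale. Probe sets of a gene had estimates of both signs in 50% of those genes and in 3 of the 7 members.

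**Figure D3:**
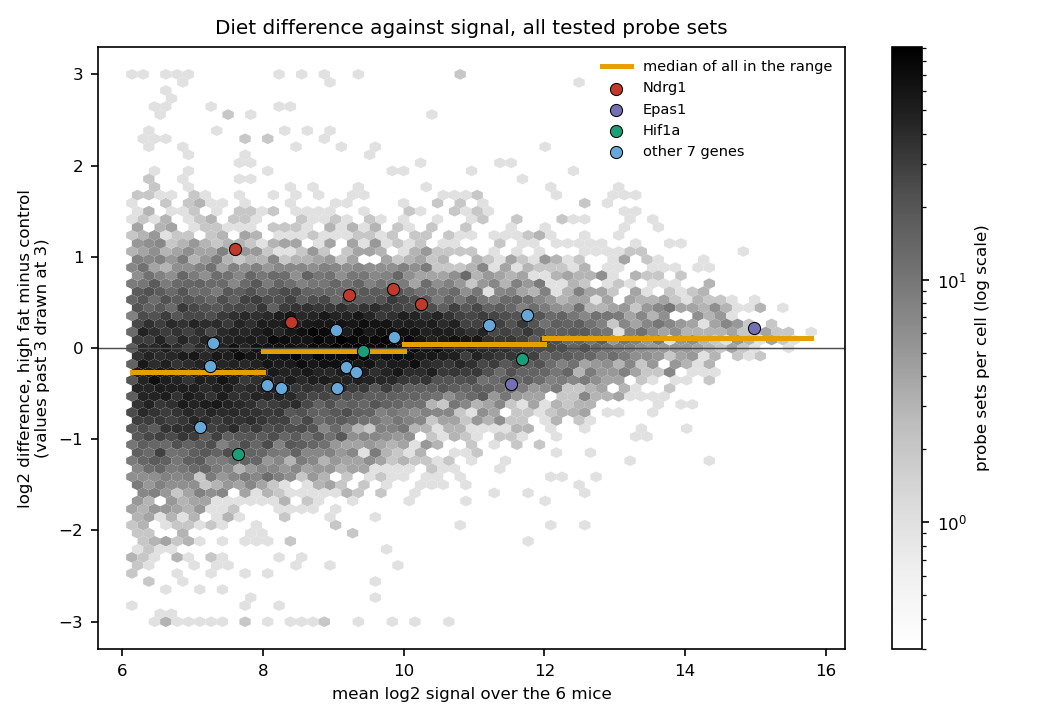
Log2 difference, high fat minus control, against mean log2 signal for all 27022 tested probe sets (grey cells, shade by number), with the median in 4 signal ranges as orange lines and the 22 members as points. The medians run from -0.26 to 0.11 as the signal goes up, all 5 Ndrg1 points lie above the line of their range, and 1 Hif1a point lies at -1.16.

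Other genes of the pathway were taken as 4 lists, each gene by its brightest probe set, with adjustment over 12689 genes. In all, 4 of 80 tested genes were called higher and 3 lower. Together these are 8.75%, where 6.75% of all genes were called, 4.56% higher and 2.2% lower. The median log2 difference was 0.16 over the lists and 0.06 over all genes.

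In the machinery that turns over or assists HIF, 1 of 16 genes was called higher and 1 lower (median 0.27). Eloc, the elongin C subunit of the von Hippel-Lindau ligase, had 3511, 2889 and 3404 in high fat and 2098, 2047 and 2065 in control lungs, and rose 1.57-fold (limma adjusted p = 0.0163). Its 3 dimmer probe sets were not called and 2 of them had estimates below 0 (-0.46 and -0.22). Rbx1, the RING subunit of the same ligase, had 113.1, 115.6 and 127 in high fat and 188.4, 274.7 and 247.1 in control lungs, and fell to 0.506 times (limma adjusted p = 0.0441). That call was held in 4 of 16 alternatives and was lost with quantile normalization (limma adjusted p = 0.0814) and with no filter (0.0648).

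Of 20 glycolytic targets 1 was called higher and 0 lower (median 0.17). This was Pfkl, a phosphofructokinase subunit, at 1600, 1163 and 1117 in high fat and 854.8, 627.6 and 835.4 in control lungs (1.67-fold, limma adjusted p = 0.0482). Its dimmer tested probe sets had estimates of 0.35 and -0.38 and were not called.

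Of 18 vascular and matrix targets 0 were called higher and 2 lower (median 0.16). Vegfa, the main angiogenic growth factor among HIF targets, had 4191, 4356 and 4258 in high fat and 6032, 6124 and 6380 in control lungs. The mice of each group lay close together, and the signal fell to 0.691 times (limma adjusted p = 0.0201), with a second probe set also called (log2 -1.5). Cxcr4, a chemokine receptor of white blood cells and endothelium, had 1209, 1246 and 1324 in high fat and 2024, 2641 and 1647 in control lungs (0.61 times, limma adjusted p = 0.0421). The white blood cell markers given above were lower in the same mice, and their part was not tested.

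Of 26 other hypoxia targets 2 were called higher and 0 lower (median 0.08). Higd1a, a mitochondrial protein, had 3583, 2572 and 2367 in high fat and 1954, 1076 and 1421 in control lungs by its brightest probe set (1.94-fold, limma adjusted p = 0.0441). A dimmer one, 1416481_s_at, was called in the opposite direction over probe sets (log2 -0.75), so the gene has no single direction here. Zfp395, a zinc finger protein, had 442.1, 359.6 and 355.4 in high fat and 198.1, 245.4 and 243.9 in control lungs (1.68-fold, limma adjusted p = 0.0486).

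Of these 7 genes, Eloc stayed called in 4 of 6 fits that left out 1 mouse, Vegfa, Cxcr4 and Higd1a in 1 and Rbx1, Pfkl and Zfp395 in 0, with no change of sign. With median centring 27 of the 80 were called, all higher, where 3208 of all 12689 genes were called. Vegfa, Cxcr4 and Rbx1 were then not called, at -0.26, -0.44 and -0.71. With arrays centred on the median of the tested probe sets alone, 7 were called higher and 3 lower, and all 3 stayed called. This alternative was added after the data were seen, and 1157 of all 12689 genes were called in it.

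**Figure D4:**
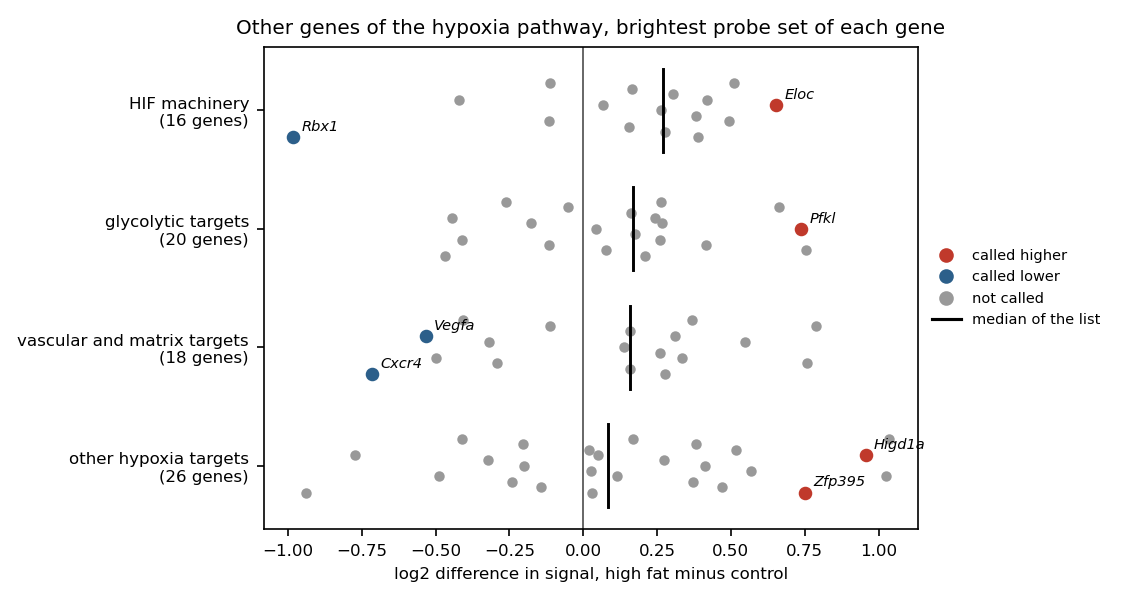
Log2 difference, high fat minus control, of the brightest probe set of 80 further genes of the hypoxia pathway in 4 lists, coloured and named where the adjusted p was under 0.05, with the median of each list as a black line. Called genes lie on both sides of 0, 4 above and 3 below, and the medians run from 0.08 to 0.27.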

How the data were processed

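Lung RNA of 6 wild type mice was measured, 3 per diet, with 1 array each. Per the submitters' processing notes the authors used MAS5, and the deposited values are linear intensity values, all above 0. The version was not given in the sources used here. Detection calls were not used. The number of arrays limits the precision.

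Of 45101 probe sets, 64 controls were left out. The platform annotation gave 1 symbol to 34958, several to 932 and none to 9211. All 25 member probe sets were found by Entrez ID in the RefSeq table of GRCm38.p6, with 0 symbols changed. Signals were floored at 1 and log2 was taken. Probe sets with a mean log2 signal at or above the 40th percentile (signal 70.3) were kept. The test was limma 3.58.1 (lmFit, eBayes with trend, R 4.3.3), two-sided, with diet as the only term and 4 residual degrees of freedom, and it was tested on simulated data. Single values had exact permutation tests over 20 relabelings. A marker score is the mean log2 signal of a list minus the control mean.

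The members and lists were chosen with earlier results of these data known. The text names every member, up to 5 called genes per list and direction by smallest p, and tissue markers chosen after their values were seen. These markers are Sftpc, Scgb1a1, Chil3, Pecam1, Emcn, Cdh5, Tmem100, Sox17, Calcrl, Etv5, Napsa, Clic5 and Hopx. Further symbols in the lists were not analysed here. Alternatives concerned normalization, low values, filters, the variance model, weights per array, a block for the replicate number, the mean of a gene's probe sets and leaving out mice. Median centring otherwise used all probe sets other than controls. A fit without replicate 1 of both groups, the dimmer Epas1 probe set and centring on tested probe sets alone were added after the data were seen.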

Additional observations from a re-analysis of the deposited data

How the results depend on the processing

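The counts of calls depended on single mice, on the scaling and on the variance model. Of all tested probe sets 3486 were called, and 724 to 3298 with 1 mouse left out, 5448 with median centring and 1343 without replicate 1 of both groups. Calls toward higher signals were 35.9% of all calls, 44.8% with quantile normalization and 80.1% with arrays centred on the median of all probe sets other than controls. That centring put the median log2 difference of tested probe sets at 0.22, against -0.0583 as deposited. Centring on the median of tested probe sets alone gave 3431 calls, 51.9% of them higher, with 4 member probe sets and 10 pathway genes called, so the larger counts depend on which probe sets set the median. Member probe sets called numbered 4, and 0 to 4 with 1 mouse left out (0 without control replicate 1, control replicate 3 or high fat replicate 2). They numbered 7 with median centring, 1 with eBayes without trend (Hif1a 1448183_a_at), 2 with the replicate block and 0 without replicate 1 of both groups. With no filter 5 of 25 were called, Hif1a 1431981_at among them, where 2628 of all 45037 probe sets were called. Pathway genes called numbered 7, and 0 to 4 with 1 mouse left out, 27 with median centring and 4 with no filter. They numbered 0 with eBayes without trend, 4 with the replicate block and 2 without replicate 1 of both groups. Of all 12689 genes 857 were called, 3208 with median centring, 136 with eBayes without trend and 737 with the replicate block. Genes called were 170 to 570 with 1 mouse left out, 731 of 18193 with no filter and 343 without replicate 1 of both groups. Fits that left out mice also had fewer samples, and the cause of these changes was not tested. Same-numbered mice had residual correlations of 0.167, 0.108 and -0.041, so the numbers were not taken as pairs. Control replicates 2 and 3 did not correlate best with their own numbers.

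No called member reversed in any alternative. Estimates of uncalled ones turned sign with median centring for Hif1a 1416035_at (0.24, and 0.0517 on tested probe sets alone) and 1427418_a_at (0.16), Pdk1 1423747_a_at (0.0106) and 1435836_at (0.072) and Adm 1447839_x_at (0.0792, and 0.0626 with quantile normalization). With the mean of kept probe sets Epas1 (-0.0876), Adm (-0.069) and P4ha1 (-0.16) turned. Without replicate 1 of both groups Hif1a 1416035_at (0.0717) and Adm 1447839_x_at (0.25) turned, and Adm 1416077_at was 0.63. With 1 mouse left out, estimates ran from -0.202 to 0.0666 for Hif1a 1416035_at, -0.31 to 0.53 for Adm 1416077_at, -0.47 to 0.0969 for Adm 1447839_x_at, -1.68 to 0.16 for Egln3 1418649_at and -0.0318 to 0.22 for P4ha1 1452094_at. The Epas1 minus Hif1a difference (0.34) ran from 0.15 to 0.5 with 1 mouse left out and was -0.28 with the dimmer Epas1 probe set. For the 4 called member probe sets, the call was lost in 27 of 67 alternatives.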
